A study of Oryza sativa with 36 samples.

Results

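The transcriptome of IR64 roots was compared between seedlings given salt together with abscisic acid (salt+ABA) and untreated seedlings (control), using the 3 arrays labelled IR64 root salt+ABA and the 3 labelled IR64 root control, which are 6 of the 36 arrays of the series. The full series holds shoots and roots of 2 rice genotypes, IR64 and PL177, under salt+ABA, salt alone and control, with 3 arrays in each group. IR64 is a widely grown indica cultivar, labelled wild type and rather sensitive to salt, and PL177 is a tolerant pyramiding line bred from introgression lines of IR64. The labels give the shoot samples as leaf. IR64 salt+ABA seedlings stood in Yoshida nutrient solution with 140 mM NaCl and 10 µM ABA, IR64 salt seedlings had the same NaCl without ABA, and IR64 control seedlings had the solution with neither. NaCl was brought in stepwise from the 3-leaf stage, and the labels give 4 days of treatment while the study's text describes a longer one. The plants carried no transgene, all groups shared the hydroponic culture, and whole roots were taken, so fewer cells of a type and less RNA per cell cannot be told apart.

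ABA is the plant hormone that builds up under drought and salt. It binds soluble receptors, which then hold back protein phosphatases 2C of clade A, and the SnRK2 kinases freed in this way (SAPK kinases in rice) activate bZIP factors that switch on dehydrins, other late embryogenesis abundant (LEA) proteins and further protective genes. In roots, which meet the salt before any other organ, the same hormone also acts on transport, growth and secondary metabolism.

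Median deposited intensity ran between 58.85 and 60.23 on the 6 arrays, and 31.5% of their values lay below 32. Levels given here are intensities after quantile normalization over the 18 root arrays. Fold changes are on the log2(intensity + 32) scale, which understates the change of dim genes, and they are given with a standard error (SE) and a p-value from limma after Benjamini-Hochberg adjustment over all 57258 probe sets. A probe set was called when it changed more than 2-fold at an adjusted p below 0.05. The 3 salt+ABA arrays resembled each other closely (correlation of log2 values 0.9964 to 0.9974), and the 3 control arrays somewhat less so (0.99 to 0.9937). Control replicate 2 stood apart, with 28 probe sets more than 4-fold above both other control arrays. They included cold- and drought-responsive DREB1 factors, such as DREB1B, with 70.4, 62.0 and 68.6 on salt+ABA arrays and 83.5, 1419 and 122 on control arrays. DREB1A had 108, 126 and 144 on salt+ABA arrays and 204, 1146 and 168 on control arrays, and DREB1G and DREB1E behaved alike. Among arrays of salt alone, replicate 3 was high for the same factors (DREB1B 81.9, 201 and 2222). None of the 12 DREB and related AP2/ERF factors measured was called by limma (0 of them more than 2-fold at an unadjusted p below 0.05, by limma or by the methods' t-test), and CYP707A5, an enzyme of ABA breakdown with 1533, 1540 and 1403 on salt+ABA arrays and 1155, 3989 and 1290 on control arrays, was not called either (-0.28, adjusted p = 0.816, and positive at 0.28 without control replicate 2).

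Under salt+ABA, 501 probe sets were called higher (0.875% of all tested) and 457 lower (0.798%). Without control replicate 2, 472 were called higher and 478 lower. Taking for each gene its brightest probe set, 336 of 17937 genes rose (1.87%) and 280 fell (1.56%), with a median log2 fold change over all genes of 0.02. The increases reached further than the decreases: 85 genes rose and 35 fell more than 4-fold, 29 rose and 6 fell more than 8-fold, and 13 rose and 2 fell more than 16-fold. For all called probe sets the 3 salt+ABA arrays lay entirely on 1 side of the 3 control arrays, which was also true of 16.5% (above) and 15.6% (below) of all probe sets. Where a called gene had further probe sets, 64 of 75 others moved in the same direction for genes that rose and 80 of 87 for genes that fell, and 0 were called in the opposite direction. No single gene could be named for 125 of the called increases and 134 of the called decreases.

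The labelled organ was set against its markers. The summed level of 11 root markers was 29899 to 35079 in IR64 salt+ABA roots and 35025 to 37615 in IR64 control roots, compared with 7258 to 10718 in IR64 shoots of these treatments. The summed level of 6 genes of green tissue (Rubisco small subunits, antenna proteins and Rubisco activase) was 7466 to 10709 in salt+ABA roots and 11886 to 17929 in control roots, against 20236 to 33907 in roots under salt alone and 76630 to 81107 in the shoots. Green-tissue transcripts were thus present in every root group and lowest under salt+ABA. Of the 6 genes 2 were called, both lower (33.3% against 1.56% of all genes). Rubisco activase rcaA1 had 622, 454 and 495 in salt+ABA roots and 1260, 1818 and 1319 in control roots (log2 fold change -1.42, SE 0.23, adjusted p = 0.000715). Rubisco small subunit rbcS had 1511, 1030 and 1082 against 2349, 3559 and 2678 (-1.22, SE 0.32, adjusted p = 0.0199), a call lost without salt+ABA replicate 2 or 3 or control replicate 2 or 3 (adjusted p up to 0.0826). Chosen after their values were seen, the chloroplast genes LFNR1 (-1.71) and FBPase (-1.55) and the photorespiratory genes GDCSH (-1.64) and GLO5 (-1.20) also fell. Of all called decreases, 25.2% were probe sets more than 4-fold brighter in PL177 control shoots than in PL177 control roots, and 22.3% were more than 4-fold brighter in those roots, against 3.91% and 2.43% of all probe sets. The same shares of the called increases were 17.2% and 7.98%. The part of green tissue in the other results was not tested.

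LEA proteins and dehydrins, which protect membranes and proteins in drying cells, had the highest median of the gene lists examined. The list also held the plasma membrane protein PM1, which is not named as either. Of the 9 measured genes, 7 rose (77.8% against 1.87% of all genes) and none fell, with a median log2 fold change of 3.43. RAB16D had 2028, 2182 and 2120 in salt+ABA roots and 66.4, 57.5 and 66.8 in control roots. Its levels in the 2 groups were far apart, at a log2 fold change of 4.49 (SE 0.32, adjusted p = 3.36e-07). The plasma membrane protein PM1 had 1680, 2013 and 1701 in salt+ABA roots and 91.7, 36.5 and 54.4 in control roots (4.34, SE 0.26, adjusted p = 5.21e-08), although a second, dimmer probe set was at 0.28. LEA19, a group 3 LEA protein, had 1845, 1633 and 1777 in salt+ABA roots and 81.1, 61.9 and 78.2 in control roots (4.08, SE 0.17, adjusted p = 1.05e-09). The other RAB16 dehydrins followed, RAB21 at 4.00 (SE 0.29), RAB16C at 3.43 (SE 0.21) and RAB16B at 3.43 (SE 0.28), and rab25 at 2.14 (SE 0.17). The RAB16 genes are close relatives, and signal passing between their probe sets was not tested. Not every member moved. Dhn1 was bright in both groups, with 5577, 5437 and 5257 in salt+ABA roots and 5474, 5956 and 5867 in control roots (-0.09, adjusted p = 0.789), and Emp1, of the seed LEA type, stayed dim at 61.8, 49.4 and 49.6 against 44.3, 46.4 and 45.9 (0.14, adjusted p = 0.307). A further gene annotated as a group 1 LEA protein, Os08g0327700, had 208, 225 and 160 against 8.9, 7.9 and 7.1 (2.51, SE 0.20). The study itself listed all 7 genes of this list that rose, and Os08g0327700, from these samples, so these genes are not independent evidence of their direction.

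**Figure D1:**
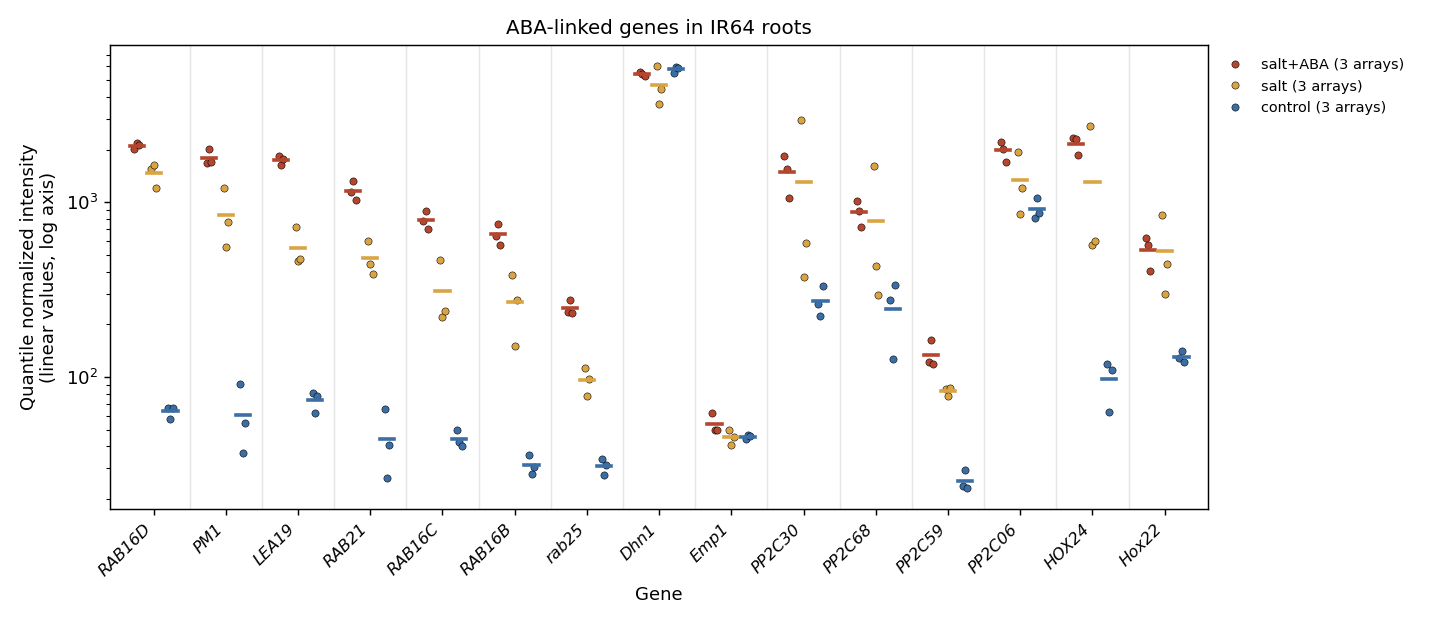
Quantile normalized intensity (log axis) of LEA, phosphatase and HD-Zip genes in IR64 roots, with a point for each array and a bar for the group mean, in the order salt+ABA, salt and control within each gene. RAB16D is above 2000 on every salt+ABA array and below 70 on every control array, while for Dhn1 and Emp1 the 3 treatments lie close together.

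Of 8 clade A protein phosphatases 2C, which restrain the pathway, 4 rose (50% against 1.87% of all genes), none fell and the median was 1.01. Of the 48 other protein phosphatases 2C, 0 were called in either direction (median -0.05, lowest -0.94 and highest 0.58). In limma 21 of them were at an unadjusted p below 0.05 but 0 of these beyond 2-fold, and the methods' t-test gave 0. Over all genes 1.87% were called higher and 1.56% lower, so the count of 0 is near that share and nothing is read from it. PP2C30 had 1846, 1550 and 1062 in salt+ABA roots and 262, 222 and 333 in control roots, a 4.93-fold rise (SE 0.60 on the log2 scale, adjusted p = 0.02). PP2C59 had 122, 162 and 118 in salt+ABA roots, while the highest control array was at 29.5 (1.52, SE 0.11, adjusted p = 4.48e-07). PP2C68 (1.78) and PP2C06 (1.10) were the remaining calls. The groups did not overlap for these 4 genes, but only PP2C59 was called with each of the 6 arrays left out: PP2C30 was lost without salt+ABA replicate 1 or 2 or control replicate 1 or 2 (adjusted p up to 0.0768), PP2C06 without salt+ABA replicate 1 or control replicate 3 (up to 0.0581), and PP2C68 with any array but control replicate 3 left out (up to 0.13). The count of the list was 1 to 3 in these refits. The 10 SAPK kinases ranged from -0.50 to 0.50 and 0 were called (3 at an unadjusted p below 0.05, 0 beyond 2-fold), and the receptor measured, PYL11, had 932, 933 and 1029 against 1121, 1065 and 1160 (-0.20, adjusted p = 0.153). The bZIP factors ABF2 (0.71, adjusted p = 0.106) and TRAB1 (0.57, adjusted p = 8.37e-05) stayed under the 2-fold threshold. Os06g0211200, annotated as an ABA-responsive element binding protein and singled out after its values were seen, had 1854, 1781 and 1739 against 480, 416 and 309 (2.09, SE 0.14, adjusted p = 1.6e-07). In ABA turnover, CYP707A6, a hydroxylase that breaks ABA down, had 1267, 1239 and 1206 against 517, 556 and 400 (1.29, SE 0.18, adjusted p = 0.000261). It was the 1 call among 7 genes of ABA synthesis and catabolism (14.3% against 1.87% of all genes). Os07g0154100, annotated as the carotenoid-cleaving enzyme Viviparous-14 of ABA synthesis, had 365, 335 and 212 in salt+ABA roots and 52.9, 390 and 47.2 in control roots, so that only control replicate 2 reached the treated level (1.22, adjusted p = 0.476).

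Transcription factors of other families moved in both directions. HOX24, an HD-Zip factor known to respond to water deficit, had 2330, 2312 and 1862 in salt+ABA roots and 119, 62.8 and 110 in control roots (4.11, SE 0.51, adjusted p = 8.42e-05). Its relative Hox22 lay between 405 and 624 in salt+ABA roots and between 122 and 140 in control roots (1.78, SE 0.30, adjusted p = 0.00107), and these were the 2 calls among 25 HD-Zip genes (8% against 1.87% of all genes). Heat-shock factors HSF25 (1.83, adjusted p = 0.00373) and HSF01 (1.74, adjusted p = 0.00727) rose among 20 measured (10% against 1.87% of all genes). In the other direction, BZIP52, a bZIP factor, had 443, 466 and 505 in salt+ABA roots and 3049, 3043 and 3828 in control roots (-2.72, SE 0.22, adjusted p = 1.5e-06). NAC45 had 105, 108 and 125 against 444, 351 and 417 (-1.59, SE 0.20, adjusted p = 0.000113). It was the 1 call among 8 NAC factors (12.5% against 1.56% of all genes).

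Genes for diterpenoid phytoalexins, the antimicrobial momilactones, phytocassanes and oryzalexins of rice, rose together. The list was drawn up after the values had been seen, so its count is a description: 10 of 16 genes rose (62.5% against 1.87% of all genes) and 0 fell, at a median of 2.39. The pathway starts from a plastid diphosphate that copalyl diphosphate synthases cyclize, kaurene synthase-like enzymes shape the ring skeleton, and cytochromes P450 and a dehydrogenase oxidize it. CPS2, the copalyl diphosphate synthase of the phytocassane branch, had 902, 861 and 906 in salt+ABA roots and 8.3, 8.4 and 10.5 in control roots (4.49, SE 0.11, adjusted p = 1.77e-12). It was near the lower end of the array's range in control roots and clearly measured in every treated root. CPS4, which opens the momilactone branch, had 450, 446 and 466 against 42.9, 30.2 and 35.9 (2.83, SE 0.25, adjusted p = 3.42e-06). Of the cyclases that follow, DTC1 (3.01, SE 0.17, with a second probe set at 0.18), DTS2 (2.16, SE 0.16) and KS10 (1.56, SE 0.07) rose and KS6 did not (64.6, 51.6 and 45.2 against 81.9, 80.5 and 82.2, -0.41, adjusted p = 0.033).

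Of the 10 oxidizing enzymes in the list, 5 rose. The P450 gene CYP99A3 had 1375, 1418 and 1451 in salt+ABA roots and 263, 157 and 189 in control roots (2.65, SE 0.26, adjusted p = 9.17e-06), its near copy CYP99A2 was at 2.78 (SE 0.28), CYP71Z7 at 2.63 (SE 0.22) and CYP701A8 at 2.67 (SE 0.23). MAS, the momilactone A synthase, had 618, 596 and 718 against 54.9, 53.5 and 31.8 (3.11, SE 0.41, adjusted p = 0.000157). CYP71Z6 (0.39) and the 4 genes that the annotation names CYP76M were not called. The closest was CYP76M8 with 674, 624 and 714 against 290, 307 and 427 (0.93, adjusted p = 0.00183). The gene named CYP76M7 (0.03) lies on chromosome 6, apart from the chromosome 2 genes given below, and these names were not checked by sequence. DXPS, an entry enzyme of the plastid isoprenoid pathway, is outside the list and was singled out after its values were seen. It had 567, 564 and 609 against 40.7, 42.1 and 34.2 (3.11, SE 0.17, adjusted p = 2.16e-08). CPS1, the copalyl diphosphate synthase of gibberellin synthesis, also rose (134 to 167 in salt+ABA roots against 27.8 to 42.8 in control roots, 1.45, SE 0.17). CPS1 and CYP701A8 were the 2 calls among 10 genes listed for gibberellins (20% against 1.87% of all genes). CYP701A8 is also in the diterpenoid list, so its call is counted in both. In the gene order of the assembly ASM3414082v1, CYP76M5, CYP76M8, LOC4329723, DTC1, CYP71Z6, CYP71Z7, CPS2 and KS6 lie next to each other on chromosome 2, and 4 of these 8 rose. LOC4329723, which the sources used here do not describe, was among them, with 743, 659 and 712 against 12.8, 9.8 and 6.4 (4.14, SE 0.23, adjusted p = 2.62e-08). On chromosome 4, CPS4 and CYP99A3 are neighbours, MAS follows 2 places on and DTS2 and CYP99A2 come directly after it, and these 5 genes rose. The 10 called genes of the list were all called with each of the 6 arrays left out in turn. Of 29 cytochromes P450 in all, 7 rose (24.1% against 1.87% of all genes) and 2 fell (6.9% against 1.56%).

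**Figure D2:**
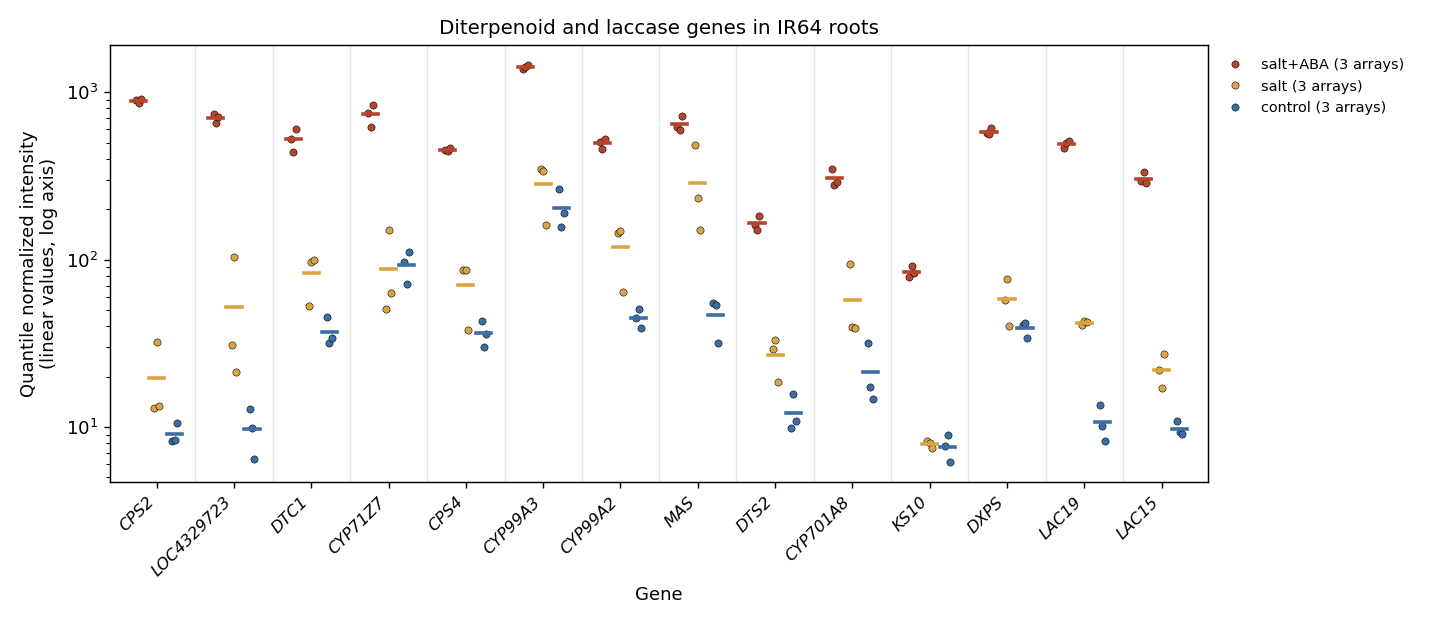
Quantile normalized intensity (log axis) of diterpenoid and laccase genes in IR64 roots, with a point for each array and a bar for the group mean, in the order salt+ABA, salt and control within each gene. All salt+ABA points lie above those of salt and control for every gene plotted; for MAS, salt replicate 1 (481) comes nearest to the salt+ABA arrays.

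Other secondary and defence genes rose with them. Laccases oxidize phenolics in the cell wall. Of the 24 phenylpropanoid and lignin genes 3 rose (12.5% against 1.87% of all genes) and 1 fell (4.17% against 1.56%). LAC19 had 466, 495 and 512 in salt+ABA roots and 13.6, 10.2 and 8.3 in control roots (3.61, SE 0.08, adjusted p = 4.99e-13), and LAC15 had 294, 334 and 286 against 10.8, 9.4 and 9.1 (3.01, SE 0.09, adjusted p = 9.19e-12). These were very even across replicates in both groups. CAD3 rose by less (1.11, adjusted p = 0.00975), a call lost without salt+ABA replicate 1 (0.95, adjusted p = 0.0541), and CAD6 fell (-1.13, adjusted p = 0.000312). The pathogenesis-related gene PBZ1 had 3724, 3188 and 3767 against 267, 125 and 93.6 (4.31, SE 0.39, adjusted p = 4.6e-06). The chitinase gene Cht1 (LOC4338719) had 5207, 4115 and 3810 against 1154, 602 and 1046 (2.23, SE 0.28, adjusted p = 9.42e-05). PBZ1 and Cht1 were the 2 calls among 11 pathogenesis-related and chitinase genes (18.2% against 1.87% of all genes). Both nonsymbiotic haemoglobin genes, whose proteins bind oxygen and nitric oxide, rose. NSHB1 had 1011, 1056 and 1100 against 382, 193 and 295 (1.80, SE 0.25, adjusted p = 0.00023), and NSHB2 had 311, 263 and 473 against 154, 45.4 and 65.9 (1.73, SE 0.35, adjusted p = 0.00424). Os07g0417200, annotated as an oleate desaturase, had 1677, 1662 and 1811 against 121, 83.5 and 37.7 (4.03, SE 0.30, adjusted p = 5.51e-07). Lipid transfer proteins were represented by Os04g0415800 (3830, 3824 and 3785 against 111, 186 and 96.3, 4.60, SE 0.23) and Os05g0550600 (1878, 2141 and 2019 against 57.1, 77.4 and 70.3, 4.35, SE 0.10), and a second probe set of Os05g0550600 did not move with it (-0.31). None of 5 further lipid transfer genes in a list of their own was called (0 beyond 2-fold at an unadjusted p below 0.05).

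Sugar handling changed at a few genes. SWEET proteins let sugars pass the membrane along their gradient, and SUT1 loads sucrose against it. SWEET12 had 929, 876 and 1003 in salt+ABA roots and 12.1, 11.4 and 16.1 in control roots (4.42, SE 0.14, adjusted p = 3.59e-11). SWEET1b had 599, 599 and 590 against 39.6, 52.3 and 44.9 (3.02, SE 0.12, adjusted p = 5.85e-10), and SUT1 had 560, 527 and 550 against 113, 157 and 113 (1.87, SE 0.17, adjusted p = 5.4e-06). These 3 were the calls among 18 sugar transporters (16.7% against 1.87% of all genes), and the list median was 0.09. Raffinose synthase gene Os07g0209100, singled out after its values were seen, had 1850, 1914 and 1810 against 228, 294 and 328 (2.60, SE 0.14, adjusted p = 2.16e-08). Os02g0158900, annotated as SNF4 after the yeast subunit of a sugar-sensing kinase and singled out in the same way, had 566, 529 and 351 against 29.6, 18.8 and 24.2 (3.17, SE 0.42, adjusted p = 0.000158). Of 30 sucrose, trehalose and starch enzymes none rose and 2 fell (6.67% against 1.56% of all genes). With 1.87% of all genes called higher, nothing is read from the absence of increases. The trehalose phosphatase gene TPP1 had 688, 643 and 641 against 2152, 5451 and 1884 (-2.04, SE 0.61, adjusted p = 0.04), a call that was lost with any 1 of the 6 arrays left out (adjusted p 0.0541 to 0.156). TPP2 (LOC4349333) was at -1.09 (adjusted p = 0.0016) and dropped under the 2-fold threshold without control replicate 3 (-0.89).

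In proline metabolism, a breakdown gene fell and 1 of 3 synthesis genes was called higher. Os10g0550900, annotated as a proline dehydrogenase, the mitochondrial enzyme that oxidizes proline, had 219, 216 and 196 in salt+ABA roots and 2951, 1432 and 3092 in control roots (-3.30, SE 0.45, adjusted p = 0.000187). The synthesis gene P5CS2 had 127, 192 and 167 against 48.5, 79.2 and 56.6 (1.06, SE 0.14, adjusted p = 0.000117), while 3 other probe sets of that gene were at -0.30, 0.14 and -0.36, and its change was under 2-fold without salt+ABA replicate 2 (0.94) or control replicate 1 (0.96). P5CS1 (0.32, adjusted p = 0.00169) and OAT (0.51, adjusted p = 0.0234) stayed under the 2-fold threshold and were not called.

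Of 21 nitrogen genes, 3 for nitrate uptake or reduction fell. NRT2.2, a high-affinity nitrate transporter with a near-identical copy in the genome that this probe set may also report, had 15.8, 16.8 and 20.6 in salt+ABA roots and between 163 and 669 in control roots (-3.01, SE 0.38, adjusted p = 8.53e-05). NRT2.3 had 74.4, 69.1 and 98.3 against 286, 406 and 440 (-1.85, SE 0.20, adjusted p = 2.4e-05), and the nitrate reductase gene NIA1 had 371, 407 and 369 against 1059, 1336 and 996 (-1.48, SE 0.24, adjusted p = 0.000869), although its second probe set was at -0.09. They made up 14.3% of the list against 1.56% of all genes, and NAR2.2, a partner protein of nitrate transporters (-0.40, adjusted p = 0.121), and the ammonium transporters and glutamine synthetases of the list were not called. The urea transporter gene DUR3 had 38.3, 35.7 and 45.4 against 78.1, 99.3 and 150, with no overlap but a change just under 2-fold (-0.95, adjusted p = 0.00816), and it was called without salt+ABA replicate 3 or control replicate 1 (-1.11). Of 6 ureide genes, which release nitrogen from allantoin, 0 were called (5 at an unadjusted p below 0.05, 0 beyond 2-fold); the lowest, AAH, was at -0.83 (adjusted p = 0.000228), and allantoinase ALN was at -0.19 (70.5, 64.9 and 64.2 against 75.6, 88.3 and 77.1).

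A part of the jasmonate genes fell. Jasmonate is a wound and defence hormone made from fatty acids by lipoxygenases and allene oxide synthases (CYP74A), and JAZ proteins repress its responses and are themselves induced by it. Of 35 genes, 6 fell (17.1% against 1.56% of all genes) and none rose, at a median of -0.15. With 1.87% of all genes called higher, nothing is read from the absence of increases. JAZ13 had 36.3, 38.9 and 40.7 in salt+ABA roots and 589, 327 and 481 in control roots (-2.78, SE 0.61, adjusted p = 0.00695), and JAZ10 had 377, 386 and 348 against 2790, 1766 and 1897 (-2.41, SE 0.56, adjusted p = 0.0111). Lipoxygenase gene LOX3 had 180, 199 and 155 against 542, 402 and 801 (-1.50, SE 0.27, adjusted p = 0.00163). CYP74A1 (-1.29, adjusted p = 0.0457) was lost with any 1 array left out (adjusted p 0.0691 to 0.121), and CYP74A4 (-1.16, adjusted p = 0.0294) with any array left out except control replicate 2 (up to 0.114), as was the sixth gene, JAZ6 (-1.21, adjusted p = 0.0245), which was named after its values were seen. The list thus had 3 to 5 genes called lower in these refits, and 2 were called higher without control replicate 1. Among 6 WRKY factors, 3 fell (50% against 1.56% of all genes). They were WRKY62 (86.9, 91.3 and 63.7 against 610, 327 and 660, -2.28, SE 0.36), WRKY76 (39.9, 55.3 and 27.2 against 145, 256 and 203, -1.67, SE 0.20) and WRKY71 (-1.21, adjusted p = 0.0446). WRKY71 was lost with any 1 array left out (adjusted p 0.0753 to 0.116), leaving 2 calls of 6.

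Metal transport moved in both directions. In a list of 15 copper and zinc transporters drawn up after the values had been seen, 5 fell and 0 rose, at a median of -0.45. The share that fell was 33.3%, against 1.56% of all genes, and with this choice of list it is a description. The copper transporter gene COPT2 (LOC4338846) had 549, 494 and 552 in salt+ABA roots and 3347, 3205 and 2923 in control roots (-2.50, SE 0.12, adjusted p = 8.04e-09). COPT1 had 2605, 2835 and 3251 against 7845, 7785 and 8869 (-1.49, SE 0.21, adjusted p = 0.000272), and ZIP1 (LOC4326394), of a zinc transporter family, had 2250, 2096 and 2689 against 6305, 6581 and 7137 (-1.50, SE 0.18, adjusted p = 4.69e-05). ZIP5 (-1.42) and HMA5, which exports copper to the xylem (-1.23), completed the list. The groups were well separated for all 5. Of 22 iron uptake genes, 2 rose (9.09% against 1.87% of all genes) and 0 fell. IRT1 had 192, 190 and 174 against 38.0, 55.5 and 45.3 (1.48, SE 0.21, adjusted p = 0.000227). IRO3 just passed 2-fold (448, 426 and 559 against 222, 240 and 202, adjusted p = 5.31e-05). It was not called without salt+ABA replicate 3 (0.89) or control replicate 3 (0.95). Nramp1, a metal transporter outside the lists, was singled out after its values were seen. It had 616, 508 and 641 against 143, 117 and 96.0 (2.05, SE 0.19, adjusted p = 4.31e-06). Among 19 phosphate genes the transporter gene Pht1;4 (641, 580 and 700 against 159, 287 and 194, 1.48, SE 0.19) and the regulator PHR3 (1.15) rose (10.5% of the list) and 0 fell. With 1.56% of all genes called lower, nothing is read from the 0 decreases in the iron and phosphate lists.

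**Figure D3:**
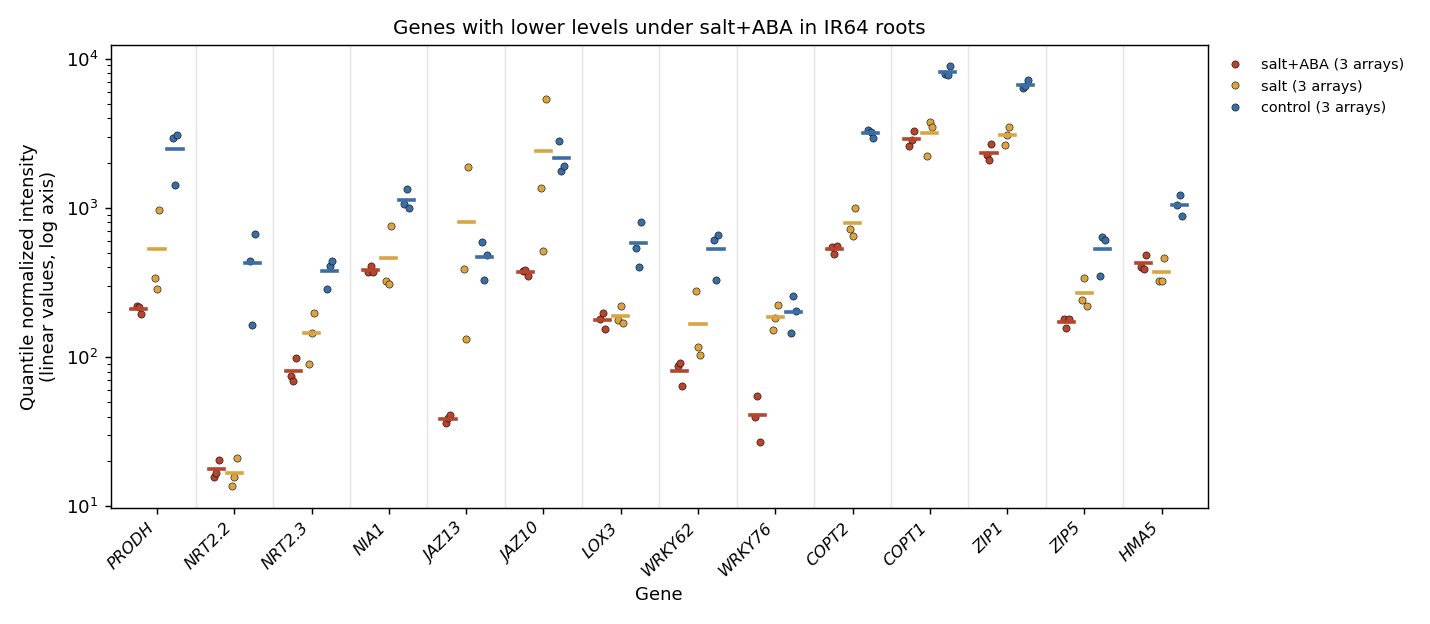
Quantile normalized intensity (log axis) of genes that fell under salt+ABA in IR64 roots, with a point for each array and a bar for the group mean, in the order salt+ABA, salt and control within each gene; PRODH stands for Os10g0550900. NRT2.2 and COPT1 are as low under salt alone as under salt+ABA, whereas JAZ13 and WRKY76 lie below both the salt and the control arrays only under salt+ABA.

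None of 27 potassium and sodium transporters was called (median 0.04). Over all genes 1.87% were called higher and 1.56% lower, so a count of 0 in a list of this size is near that share, and nothing is read from it or from the other lists without a call. Of the transporters, HKT1.5, which retrieves sodium from the xylem, had 159, 157 and 169 against 88.3, 106 and 60.7 (0.75, adjusted p = 0.0338). None of 25 aquaporins, 16 antioxidant enzymes, 57 auxin genes, 31 cytokinin genes, 11 ethylene genes, 29 cellulose synthase genes, 11 MYB factors or 2 class III peroxidases was called. Without adjustment, more than 2-fold at p below 0.05, limma and the methods' t-test each gave 1 auxin gene and 0 of the others in these lists. Of 45 cell cycle, replication and histone genes, only the cyclin gene CYCD5-3 was called (213, 218 and 199 against 490, 449 and 442, -1.03, adjusted p = 4.61e-05), and it came under the 2-fold threshold without salt+ABA replicate 3 (-0.99) or control replicate 1 (-0.98). It made up 2.22% of the list, near the 1.56% of all genes called lower, and nothing is read from this count. Of 30 expansins and xyloglucan enzymes, which loosen the wall, 3 rose (10% against 1.87% of all genes) and none fell: EXPA31 (1.56), EXPB11 (1.28) and EXPB6 (1.13), the last 2 not called without control replicate 1 (adjusted p = 0.0335 for EXPB11, at the 2-fold threshold, and 0.94 for EXPB6). Among 32 heat-shock proteins, CLPB1 (1.37), HSP17.4 (1.10) and HSP18.6 (1.01) rose (9.38% of the list) and HSP23.2 fell (283, 211 and 283 against 975, 1074 and 573, -1.60, adjusted p = 0.000611); HSP18.6 was not called without salt+ABA replicate 1 or 2 or control replicate 3 (as low as 0.97). A heat-shock protein outside the list, Os05g0460000, was at 1.76 (adjusted p = 0.0149) and was lost without salt+ABA replicate 1 or control replicate 3 (adjusted p up to 0.0822). Of 6 glutathione transferases, GSTU1 (5966, 5759 and 5892 against 3647, 1363 and 1622, 1.53, adjusted p = 0.00311) and GSTU6 (1.02, adjusted p = 0.0334) rose (33.3% of the list), GSTU6 being called only in full and without control replicate 1. Of 51 calcium-regulated kinases, CIPK16 alone rose (1162, 1418 and 1109 against 359, 162 and 495, 1.87, adjusted p = 0.0153), and it was lost without salt+ABA replicate 2 or control replicate 2 (adjusted p up to 0.0714). This 1.96% of the list is near the 1.87% of all genes called higher, and nothing is read from the count.

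**Figure D4:**
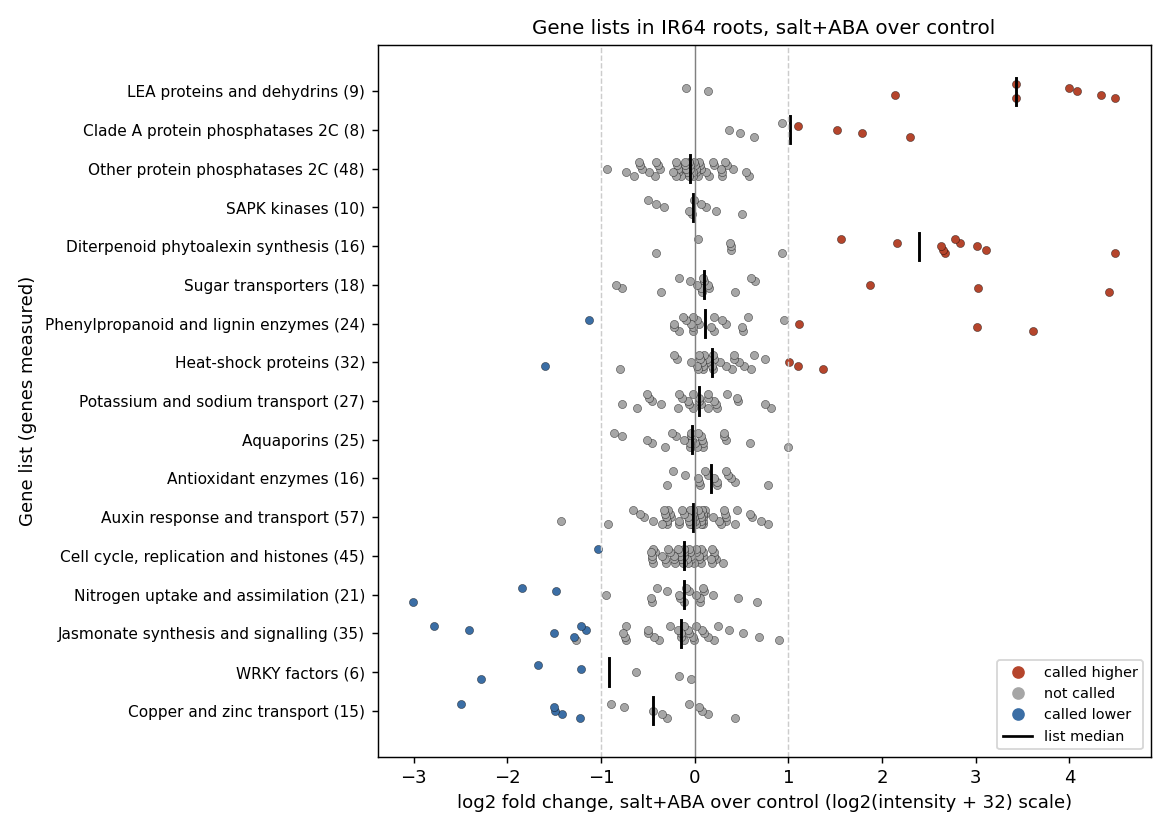
Log2 fold change of salt+ABA over control in IR64 roots for the members of 17 gene lists, with a point for each gene, coloured by its call, a black bar for the list median and dashed lines at a 2-fold change. The medians of the LEA list (3.43) and the diterpenoid list (2.39, chosen after values were seen) lie to the right of the others, and those of the WRKY (-0.92) and copper and zinc (-0.45, also chosen after values were seen) lists to the left.

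The largest changes of all included genes that the sources used here do not describe. LOC4331945 had 3429, 3565 and 3202 in salt+ABA roots and 104, 67.4 and 62.1 in control roots (4.98, SE 0.20, adjusted p = 5.85e-10), the highest of any gene on the log2(intensity + 32) scale, which compresses dim genes such as CPS2. Os12g0147200 (4.35, SE 0.52), annotated as hypothetical, had both of its probe sets high (4.35 and 4.09), and LOC4343033 was at 3.69 (SE 0.18). At the other end, LOC4335518 had 89.0, 70.1 and 72.4 against 2421, 1768 and 2882 (-4.43, SE 0.28, adjusted p = 1.46e-07), and Os01g0642200 had 68.8, 81.3 and 60.8 against 1731, 1859 and 1599 (-4.11, SE 0.17, adjusted p = 1.15e-09). LOC4344505 (-3.48), LOC4347027 (-3.01), LOC4329468 (-2.98), LOC4342395 (-2.91), LOC4331849 (-2.88), Os04g0482300 with a TAZ zinc finger (-2.82), LOC4345815 (-2.78), LOC4329752 (-2.70) and LOC4336059 (-2.61) made up the rest of the 15 largest decreases beside Os10g0550900, NRT2.2, JAZ13 and BZIP52. Of these, LOC4345815 was lost with any 1 array left out (adjusted p 0.0639 to 0.0814).

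The salt+ABA treatment combines 2 changes, and arrays of IR64 roots under salt alone allowed the step to salt and the further step to salt+ABA to be set out. No group had ABA without salt, so an effect of ABA by itself and one that needs salt cannot be told apart. Salt alone against control had 348 probe sets called higher (0.608%) and 339 lower (0.592%), or 245 (1.37%) and 211 (1.18%) genes. Salt+ABA against salt had 189 probe sets higher (0.33%) and 558 lower (0.975%), or 129 (0.719%) and 362 (2.02%) genes. The methods' t-test after Benjamini-Hochberg adjustment gave 29 and 9 probe sets for salt+ABA against salt, and 7 and 3 for salt against control. Of the 6 green-tissue genes 5 were called lower for salt+ABA against salt (median -1.79, with the summed levels given above). For salt against control 2 of them were called higher and 0 lower (median 0.80). Their part in the calls of either comparison was not tested. These comparisons share arrays with each other and with the main comparison, so the values are given side by side. For some genes the salt step carried nearly the full change: LOC4331945 was at 4.54 for salt against control and 0.45 for salt+ABA against salt, Os04g0415800 at 4.41 and 0.19, RAB16D at 3.96 and 0.53, SWEET12 at 3.67 and 0.75, NRT2.2 at -3.04 and 0.03, LOX3 at -1.43 and -0.07, COPT1 at -1.40 and -0.09 and BZIP52 at -2.50 and -0.23. For others it lay in the step from salt to salt+ABA. CPS2 had 13.0, 32.4 and 13.4 on arrays of salt alone (0.31 for salt against control, not called, and 4.18 for salt+ABA against salt, SE 0.11, adjusted p = 1.01e-11). LAC19 had 40.5, 43.0 and 42.2 under salt (0.79 and 2.82), SWEET1b 70.9, 89.0 and 68.9 (0.48 and 2.54), DXPS 57.7, 76.9 and 40.4 (0.33 and 2.78), and WRKY76 up to 223 (-0.08 and -1.59). In the diterpenoid list 1 of 16 genes, MAS, was called for salt against control (1.90) and 10 were called higher for salt+ABA against salt, with medians of 0.17 and 1.64. In the list of LEA proteins and dehydrins, 7 of 9 genes were called higher for salt against control and 6 of 9 for salt+ABA against salt, as for LEA19, with 717, 462 and 473 under salt (2.44 and 1.64). LOC4344505 was lower still under salt alone, at 18.3, 13.5 and 15.9 (-4.68 and 1.21). Salt replicate 3 stood apart at stress and jasmonate genes (JAZ10 1351, 517 and 5361; TPP1 663, 869 and 4722), and without it 138 probe sets were called higher and 453 lower for salt+ABA against salt, in place of 189 and 558.

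The salt+ABA response of IR64 roots was then set against that of PL177 roots by testing the difference of the responses. Only 1 probe set of 57258 (0.00175%) was called, and 13 (0.0227%) passed more than 2-fold at an unadjusted p below 0.05. It belonged to LOC4341335, which the sources used here do not describe, with 216, 235 and 196 in IR64 salt+ABA roots and 30.2, 73.2 and 46.1 in IR64 control roots (1.63), and 22.8, 27.2 and 30.5 in PL177 salt+ABA roots and 32.9, 33.2 and 38.2 in PL177 control roots (-0.18). The difference was 1.81 (SE 0.20, adjusted p = 0.00859). No probe set was called higher, however, with only the arrays compared in the fit, or without PL177 salt+ABA replicate 1, IR64 salt+ABA replicate 1 or 2 or IR64 control replicate 3. For the genes named above the difference did not pass, which does not show that the genotypes responded alike; CPS2, for example, was at 4.49 in IR64 and 3.79 in PL177 (490, 541 and 582 against 8.7, 11.8 and 7.1), a difference of 0.70 (SE 0.16, adjusted p = 1).

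Between organs the responses did differ. Testing IR64 roots against IR64 shoots over all 36 arrays, normalized together so that a difference need not equal that of the separate fold changes, the response was more positive in roots at 665 probe sets (1.16%) and more negative at 452 (0.789%). In IR64 shoots alone 220 probe sets were called higher (0.384%) and 504 lower (0.88%). Of 17937 genes, 336 were called higher and 280 lower in IR64 roots, and 141 higher and 313 lower in IR64 shoots. Among them, 60 were called higher in both organs and 45 lower in both. A further 27 were called higher in roots and lower in shoots with a called difference, while 0 showed the converse. With so few genes called higher in shoots, nothing is read from that 0. Of the 10 diterpenoid genes that rose in roots, 7 were among the 27, namely CPS2, CPS4, KS10, CYP71Z7, CYP99A2, CYP99A3 and MAS, while DTC1, DTS2 and CYP701A8 were not called in shoots. CPS2 had 80.3, 66.5 and 71.5 in IR64 salt+ABA shoots and 298, 218 and 445 in IR64 control shoots (-1.70 in shoots, 4.49 in roots, difference 6.29, SE 0.27, adjusted p = 3.03e-15), and CYP71Z7 had 124, 56.6 and 68.3 against 1050, 788 and 901 (-3.08 in shoots, difference 5.79, SE 0.35, adjusted p = 8.11e-12). LAC19 (-1.93 in shoots, difference 5.60), PBZ1 (2036, 1321 and 1476 against 7140, 6609 and 6232 in shoots, -2.05, difference 6.51, SE 0.51, adjusted p = 1.6e-09) and Os07g0417200 (-1.48 in shoots, difference 5.66) went the same way. By contrast LEA19 rose in both organs, at 4.08 in roots and 3.92 in shoots, with a difference of 0.32 (adjusted p = 0.748), and RAB21 at 4.00 and 4.90, with a difference of -0.78 (adjusted p = 0.534). SWEET12, NRT2.2 and COPT2 (LOC4338846) changed in roots (4.42, -3.01 and -2.50) and stood at 0.09, 0.02 and -0.19 in shoots, with called differences of 4.43, -3.07 and -2.42.

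**Figure D5:**
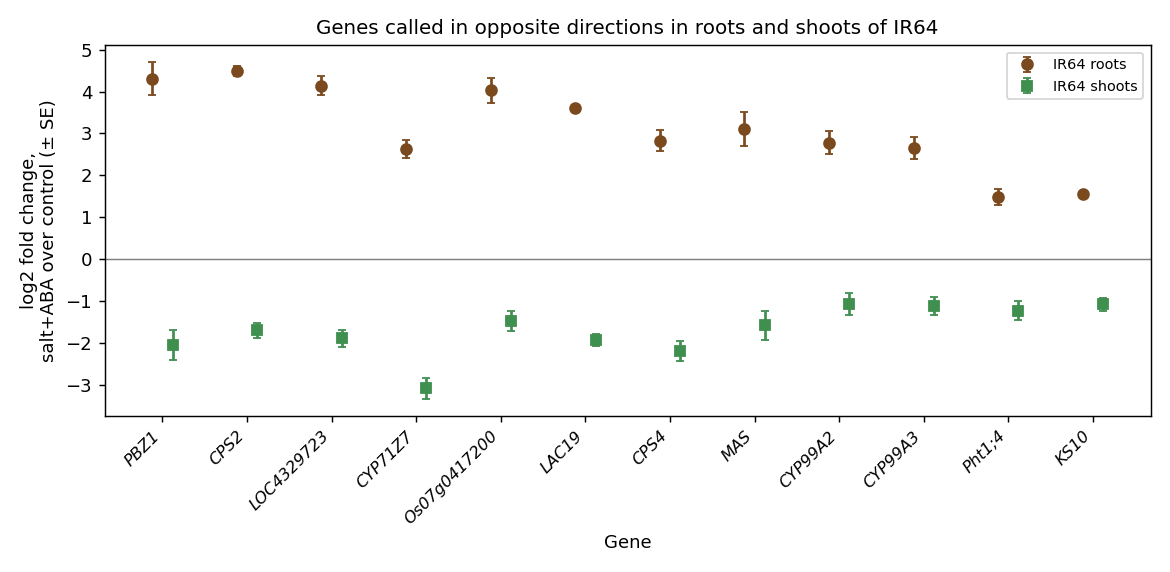
Log2 fold change of salt+ABA over control with its standard error in IR64 roots (circles) and IR64 shoots (squares) for the 12 named genes called in opposite directions in the 2 organs. All 12 lie between 1.48 (Pht1;4) and 4.49 (CPS2) in roots and between -3.08 (CYP71Z7) and -1.06 (CYP99A2) in shoots.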

How the data were processed

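RNA of 36 samples was hybridised to Affymetrix rice arrays. The authors deposited summarised probe set intensity values on a linear scale, between 1 and 25332.33; no source used here says how they were summarised or scaled. After quantile normalization of the 18 root arrays, log2(intensity + 32) was fitted by limma 3.58.1 in R 4.3.3 with a mean for each of 6 root groups over 57258 probe sets, 123 control probe sets being left out. Calls required more than 2-fold and a Benjamini-Hochberg adjusted p below 0.05. Differences between organs used all 36 arrays. The fit was also run on simulated data with known changes. The simulation used independent normal noise without a further quantile normalization and changed only probe sets above the median level, so it does not cover dim genes. Only 3 arrays a group limit the precision. The labels call replicates biological without naming separate cultures, so p-values measure the spread between these samples. Genes came from the platform annotation (22436 probe sets with 1 gene, 95 with several, 34727 with none), updated through the gene table of ASM3414082v1, and 147 probe sets were named through the study's supplement. Each gene was read from its brightest probe set. Named were the 15 largest increases and decreases with non-overlapping arrays, up to 4 called members of each list in each direction, all members of lists of at most 12 genes, genes the study names for roots, and genes said to be chosen after their values were seen. Members and lists were chosen with earlier results of these data known. Alternatives were other pseudocounts, normalizations, filters, variance models and array subsets, a replicate block, the methods' t-test and leaving out each array.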

Additional observations from a re-analysis of the deposited data

Results flagged for a closer look

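The salt+ABA response differed between the IR64 and PL177 roots at 1 probe set of 57258 by the test of the difference itself. It reports LOC4341335, singled out after its values were seen, whose log2 fold change was 1.63 in IR64 roots and -0.18 in PL177 roots, a difference of 1.81 (SE 0.20, adjusted p = 0.00859). With only the arrays compared in the fit, and in 4 of the 12 refits that left out 1 array, 0 probe sets were called higher. The 3 IR64 salt+ABA arrays lay above the 3 IR64 control arrays, and the 3 PL177 salt+ABA arrays lay below the 3 PL177 control arrays.

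Between IR64 roots and IR64 shoots the test of the difference called 665 probe sets with the more positive response in roots and 452 with the more negative, and among the 127 genes examined singly these numbers were 44 and 24. Of these 127 genes 107 were called in IR64 roots, and many were named for that change. The counts of 44 and 24 are therefore a description and cannot be set against those over all probe sets. In 12 of the 127 genes the response was called in opposite directions, higher in roots and lower in shoots. The differences of the log2 fold changes were 6.51 for PBZ1, 6.29 for CPS2, 6.11 for LOC4329723, 5.79 for CYP71Z7, 5.66 for Os07g0417200, 5.60 for LAC19, 5.08 for CPS4, 4.77 for MAS, 3.90 for CYP99A2, 3.88 for CYP99A3, 2.78 for Pht1;4 and 2.64 for KS10. CPS4, for example, had 450, 446 and 466 in salt+ABA roots and 42.9, 30.2 and 35.9 in control roots, and 22.2, 18.1 and 16.2 in salt+ABA shoots and 248, 136 and 233 in control shoots.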

How the results depend on the processing

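With no fold threshold 3453 probe sets were higher and 3080 lower for salt+ABA against control, 2144 and 1958 for salt+ABA against salt, 3167 and 3400 for salt against control, and 2348 and 2183 for the organ difference. The larger pseudocount of the 2 tried gave 282 and 234, 96 and 304, 174 and 203, and 389 and 228 for these comparisons, and a pseudocount of 1 gave 557 and 520 for salt against control and 719 lower for the organ difference. The methods' t-test after Benjamini-Hochberg adjustment gave 310 and 260 for salt+ABA against control, 29 and 9 for salt+ABA against salt, and 7 and 3 for salt against control; with p not adjusted it gave 500 and 486, 213 and 562, and 325 and 317. The genotype difference had 0 probe sets higher with only the arrays compared in the fit, and 1 lower with the filter on low values. With each array left out in turn, salt+ABA against control had 427 to 565 higher and 379 to 478 lower, salt+ABA against salt 131 to 253 and 453 to 739, salt against control 300 to 481 and 284 to 453, the genotype difference 0 to 2 and 0 to 1, and the organ difference 566 to 782 and 361 to 521. Of 107 called single genes 87 kept their call with each of the 6 arrays left out. CYP707A5, not called, stood at 0.28 without control replicate 2 and between -0.60 and 0.28 over the refits. The larger pseudocount ended 20 single-gene calls, the adjusted t-test 27, limma with trend and robust options 4, no quantile normalization 2 and median centring 1. A larger pseudocount compresses dim genes by construction; the cause of the other changes was not tested.

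Same-numbered salt+ABA and control arrays showed little shared deviation from their group means (correlations -0.0583, -0.0327 and 0.116). For salt+ABA and salt arrays the correlations were 0.288, 0.144 and -0.118. With 3 arrays a group these values cannot decide whether the replicate numbers pair the samples. With the replicate number as a block, 500 probe sets were higher and 458 lower for salt+ABA against control, 204 and 561 for salt+ABA against salt, 358 and 344 for salt against control, 1 and 0 for the genotype difference and 687 and 475 for the organ difference, and the call on WRKY71 was lost (adjusted p = 0.0517).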
